A study of Mus musculus with 10 samples.

Results

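The simple epithelial keratins examined here are Krt8 and Krt7, of the type II class, and Krt18 and Krt19, of the type I class. They were read as every probe set (a group of short array probes for one transcript) to which the platform's annotation gives one of these symbols and no other. The 4 genes were covered by 6 of the 38676 probe sets in the table: 3 for Krt8 and 1 each for Krt18, Krt19 and Krt7. The measurements come from 10 single mouse embryos at 3.0 days post coitum, taken from the oviduct and each hybridised to its own Affymetrix array. The groups were 5 wild-type embryos (WT1 to WT5) and 5 embryos in which Klf5, the gene of a zinc finger transcription factor, was knocked out (KO1 to KO5). The labels do not give the knockout allele, the strain, the litter or the sex of an embryo.

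Keratins form the intermediate filaments of epithelial cells. A filament is built only from pairs of 1 type I and 1 type II chain, so that Krt8 pairs mainly with Krt18 and Krt7 mainly with Krt18 or Krt19, and an unpaired chain is usually degraded. In the mouse embryo Krt8 and Krt18 are the first keratins to be made, in the trophectoderm, the outer epithelium that later pumps fluid into the blastocyst cavity and forms the placenta, while the inner cell mass lacks them. Krt19 and Krt7 are also known from trophectoderm and its descendants. An array of a whole embryo cannot tell fewer cells of a type from less RNA in each cell.

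In the RefSeq gene table Krt8 and Krt18 lie next to each other on chromosome 15 with 0 protein-coding genes between them, although they belong to different classes. Krt18 is the type I gene that sits at the edge of the type II cluster. The 250 bases before the annotated start of Krt8, Krt18 and Krt7 are shown because Krt8 and Krt18 are neighbours that were both lower in KO than in WT embryos. Klf5 belongs to a family of factors known to bind CACCC boxes. The sequences are from RefSeq on GRCm38.p6 and read 5′ to 3′ along each gene, with capitals for CACCC on either strand (CACCC or GGGTG). The windows are chr15:102004343-102004592 on the minus strand for Krt8, chr15:102027966-102028215 on the plus strand for Krt18 and chr15:101412153-101412402 on the plus strand for Krt7.
Krt8: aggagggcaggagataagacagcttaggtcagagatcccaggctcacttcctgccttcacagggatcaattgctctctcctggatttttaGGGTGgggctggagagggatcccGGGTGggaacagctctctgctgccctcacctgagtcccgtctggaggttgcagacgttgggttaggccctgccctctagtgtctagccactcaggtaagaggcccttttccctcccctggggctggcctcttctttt
Krt18: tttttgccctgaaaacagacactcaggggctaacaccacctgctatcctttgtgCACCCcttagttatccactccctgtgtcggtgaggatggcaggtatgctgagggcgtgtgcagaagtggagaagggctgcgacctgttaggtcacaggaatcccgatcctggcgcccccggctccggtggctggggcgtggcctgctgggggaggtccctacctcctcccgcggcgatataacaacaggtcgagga
Krt7: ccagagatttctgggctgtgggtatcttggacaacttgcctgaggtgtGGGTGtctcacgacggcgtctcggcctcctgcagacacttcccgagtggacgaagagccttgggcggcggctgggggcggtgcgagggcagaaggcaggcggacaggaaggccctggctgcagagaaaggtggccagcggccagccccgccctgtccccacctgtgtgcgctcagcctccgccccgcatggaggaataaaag
The Krt8 window held 2 matches to CACCC, beginning 160 and 137 bases before the start and both on the opposite strand. The Krt18 window held 1, 196 bases before the start, and the Krt7 window 1, 202 bases before the start. Of 32851 RefSeq windows of this length, 52.0% held at least 1 such match on either strand. The GC box GGGCGG, searched on both strands, was found 4 times in the Krt7 window and 0 times in those of Krt8 and Krt18 (32.7% of all windows held it). The letters GCCNNNGGC, as bound by AP-2 factors, were found 1 time for Krt18 and 2 times for Krt7, where one match overlaps a GC box, and 0 times for Krt8 (13.7% of all windows). TATAAA and the TEAD letters GGAATG were found 0 times in the 3 windows, against 12.4% and 12.6% of all windows. A match is only a run of letters, and no binding was measured here.

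The arrays had median intensities between 39.97 and 43.6 and highest intensities between 24149 and 32029.5. Klf5 itself, at the 1 probe set that follows the labels, had intensities of 1096 to 4183 among the WT and 13.97 to 49.2 among the KO embryos. A further Klf5 probe set differed by 0.71 with an adjusted limma p of 0.248 and did not follow the labels. The third Klf5 probe set lay under the filter on dim values, and no label tells where in Klf5 the deletion lies. The bioB control, a bacterial transcript added at hybridisation, divided the arrays into a high set (WT1, WT2, WT3, KO1, KO2) and a low set (WT4, WT5, KO3, KO4, KO5), so the differences of Krt8, Krt18 and Krt7, of their pairs and of Lmna are also given within each set. All 12 markers of the early embryo passed the level filter, among them Dppa3, Nanog, Cdx2 and Gata3, and the list also holds Krt8, Krt18 and Tfap2c. Markers of oviduct epithelium, which itself contains simple keratins, were low. The summed intensity of the 8 measured ones (of 10 listed) ranged over 295 to 362 among WT and 282 to 310 among KO embryos. Ovgp1, the oviduct glycoprotein, had mean levels of 5.55 (WT) and 5.62 (KO) on the log2 scale, and Pax8, Wt1 and Muc16 lay under the filter. Tppp3, the brightest of the oviduct list, was the 1 of its 5 tested markers with an unadjusted limma p under 0.05. It averaged 6.83 ± 0.27 (WT) and 6.32 ± 0.35 (KO; mean ± SD of 5 embryos each), a difference of -0.51 in the direction of the keratins (unadjusted p = 0.0219, adjusted p = 0.369). For cumulus and granulosa cells, 7 of 9 markers summed to 305 to 415 (WT) and 311 to 401 (KO), and for blood and immune cells 5 of 6 summed to 184 to 241 (WT) and 191 to 217 (KO). The part of these cells in the keratin values was not tested.

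Krt8, the type II keratin of the first embryonic epithelium, fell about 7-fold to 8-fold in KO embryos at each of its 3 probe sets. At the probe set with the highest mean, used for Krt8 from here on where no other is named, the intensities were 11213, 14609.5, 18087, 9171 and 11392 in WT1 to WT5. In KO1 to KO5 they were 1575, 995, 1649, 2706.5 and 1571. The genotypes did not overlap: the highest KO embryo (KO4) lay 1.75 log2 units under the lowest WT embryo (WT4). On the scale log2(intensity + 16), used for all levels and differences here, the 5 WT embryos averaged 13.62 ± 0.38 and the 5 KO embryos 10.67 ± 0.51 (mean ± SD).

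The KO minus WT difference of this probe set was -2.94 with a standard error of 0.26 (95% interval -3.52 to -2.37), a 7.69-fold lower level, at an adjusted limma p of 0.00118. Limma is a linear model fitted to all tested probe sets together, which moderates each variance, and adjustment was by Benjamini-Hochberg over the 23174 probe sets that passed the level filter. Permuting the genotype labels exactly (two-sided) gave p = 0.00794, the smallest value 5 against 5 allows. Lower levels in KO embryos at an adjusted limma p under 0.05 were found for 0.246% of all tested probe sets, higher levels for 0.121% and either for 0.367%. Of the 5 member probe sets tested, 3 passed, all of Krt8 and all lower. At an unadjusted limma p under 0.05, 5 of 5 were lower, against 4.84% of all tested probe sets. The genotypes did not overlap for 4 of the 5, against 2.33% of all tested probe sets in either direction. Of these 5, 3 are of the single gene Krt8 and are not independent of each other. Krt7 passed the level filter of 5.55 only through the WT embryos, with means of 6.71 (WT) and 5.52 (KO). Krt19 was not tested and is not counted.

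The other Krt8 probe sets gave the same picture embryo by embryo. At the second the WT embryos read 8764, 11259, 12815, 7115 and 9141, and the KO embryos 1456, 873, 1322, 2225 and 1354. At the third the WT embryos read 9747, 11996, 15032, 6531 and 7727, and the KO embryos 1038, 842, 1295, 1897 and 1281. WT3 was the highest and WT4 the lowest WT embryo on all 3 probe sets, and KO4 was the highest and KO2 the lowest KO embryo on all 3. The differences were -2.78 at the second and -2.98 at the third, with standard errors of 0.24 and 0.26 and an adjusted limma p of 0.00118 each. Among all tested differences the 3 Krt8 probe sets held the places 7, 8 and 10 from the most negative. By the array maker's naming, the second and the third probe set hold probes that can match other transcripts. A Krt8 pseudogene (Krt8-ps) is known on chromosome 7, and what it adds to these values cannot be told apart.

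**Figure D1:**
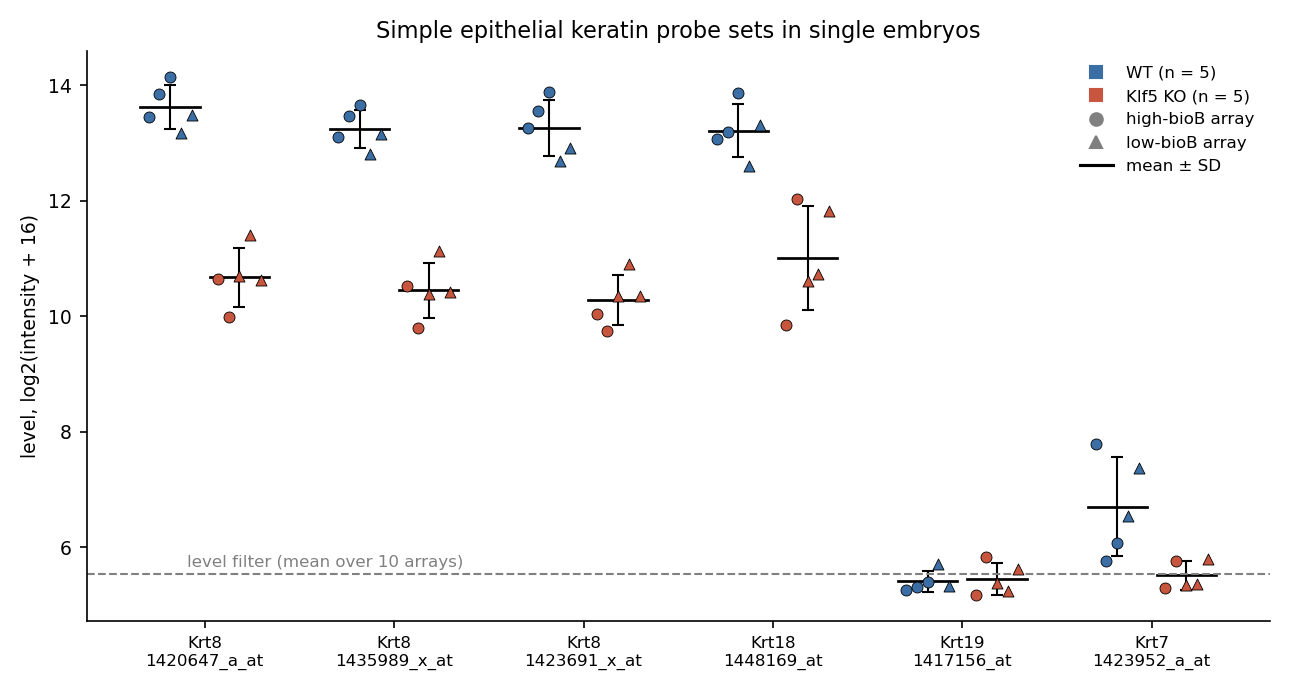
Level of each of the 6 keratin probe sets, as log2(intensity + 16), in 5 WT (blue) and 5 Klf5 KO (red) embryos; circles are arrays of the high-bioB set, triangles of the low-bioB set, and bars show the mean ± SD. The KO embryos lie under all WT embryos for Krt8 and Krt18, overlap them for Krt7, and Krt19 lies around the level filter of 5.55 in both genotypes.

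Krt8 was lower in KO embryos within each set of arrays. The difference was -3.50 in the high-bioB set (3 WT against 2 KO) and -2.41 in the low-bioB set (2 WT against 3 KO), with adjusted limma p of 0.0996 and 0.0999 in these small subsets. The difference between the sets was 1.10 with a standard error of 0.44 (limma interaction, adjusted p = 0.365). At the third Krt8 probe set, where it was largest, the interaction was 1.40 (unadjusted p = 0.00299, adjusted p = 0.173). With the set as a block the Krt8 difference was -2.95 (adjusted p = 0.00404). Without WT4 and WT5, the WT arrays of the low set, it was -3.14 (adjusted p = 0.00858).

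Krt18, the type I partner of Krt8, was also lower in every KO embryo, by amounts that varied widely. The WT intensities were 8598, 9333, 14953, 6169 and 10109 in WT1 to WT5. The KO intensities were 908, 4164, 1548, 1675 and 3579 in KO1 to KO5. The genotypes did not overlap, but the highest KO embryo (KO2) lay only 0.57 log2 units under the lowest WT embryo (WT4). Such a separation with KO embryos below was met by 1.32% of all tested probe sets.

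Krt18 averaged 13.21 ± 0.46 over the 5 WT and 11.01 ± 0.90 over the 5 KO embryos (mean ± SD), so that KO minus WT was -2.20 with a standard error of 0.40 (95% interval -3.10 to -1.31). The adjusted limma p of 0.0541 did not pass 0.05, while permuting the labels exactly gave p = 0.00794 (two-sided) and limma an unadjusted p of 0.000247. Over the settings tried on all 10 arrays and the fit without WT4 and WT5, the adjusted p ran from 0.0357 (level filter at the 60th percentile) to 0.120 (replicate block). It was 0.0488 with quantile normalization, 0.0496 with a pseudocount of 1 and 0.0486 with array weights. Leaving out KO2, the KO embryo with most Krt18, gave -2.46 and an adjusted p of 0.0484, and the other 9 embryos left out in turn gave 0.0610 to 0.125. Within the bioB sets the difference was -2.44 (high) and -1.901 (low). Krt18 had only 1 probe set, so its values could not be compared with a further one.

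The differences of Krt8 and Krt18 from WT were not of the same size in each KO embryo. Measured from the WT mean, Krt8 differed by -2.98 in KO1, -3.63 in KO2, -2.91 in KO3, -2.20 in KO4 and -2.98 in KO5. For Krt18 the same values were -3.36, -1.18, -2.60, -2.48 and -1.39. KO2 thus had the lowest Krt8 and the highest Krt18 of the KO embryos, and KO1 had the lowest Krt18. Set against the WT median intensity, KO2 was 11.4-fold lower for Krt8 and 2.24-fold lower for Krt18, and KO1 was 7.23-fold and 10.3-fold lower.

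The Krt8 minus Krt18 difference of log2 levels, taken within each embryo, ranged from 0.17 (WT5) to 0.65 (WT2) among WT embryos. In KO1, KO3 and KO4 it was 0.78, 0.09 and 0.69, and in KO2 and KO5 it was -2.05 and -1.18. Its SD was 0.20 in WT and 1.24 in KO embryos (n = 5), and this difference in spread was not tested. KO2 is an array of the high-bioB set and KO5 one of the low-bioB set. The zero of this measure has no meaning, since different probe sets are compared, but its change between embryos does. The mean change of -0.74 from WT to KO embryos did not pass an exact two-sided permutation test (p = 0.317, also 0.317 adjusted over the 6 pairs of the 4 genes). Whether the difference was larger for Krt8 than for Krt18 was not resolved with 5 embryos per genotype.

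**Figure D2:**
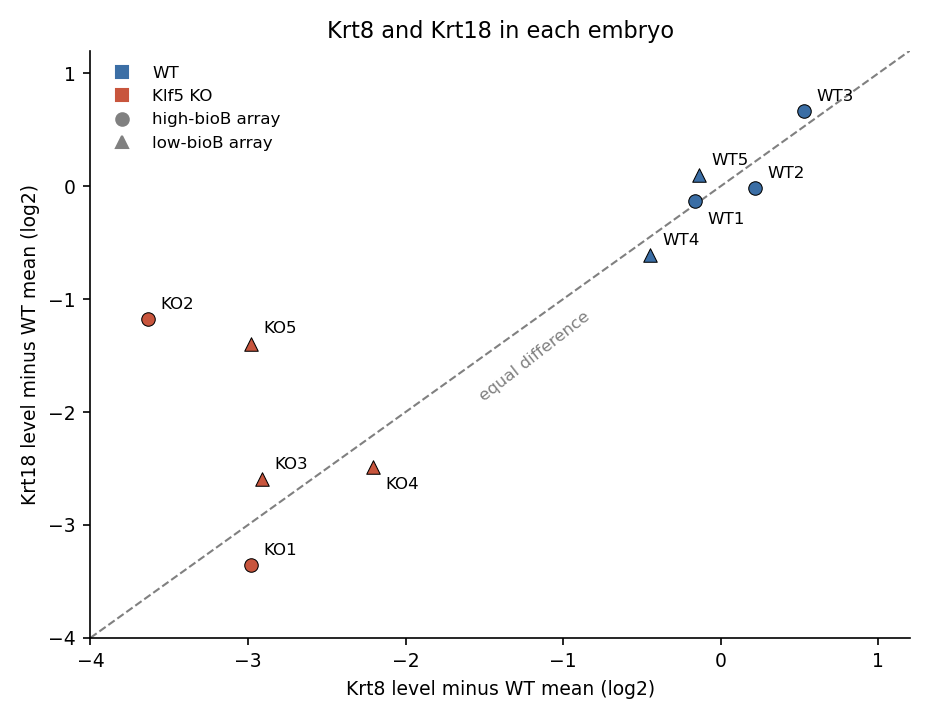
Krt8 (x axis, probe set of the highest mean) against Krt18 (y axis) in each embryo, as log2 level minus the WT mean; blue is WT, red is Klf5 KO, circles and triangles are high-bioB and low-bioB arrays, and the dashed line marks an equal difference in both genes. WT embryos lie along the line, while KO2 (-3.63 and -1.18) and KO5 (-2.98 and -1.39) lie above it.

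Krt7, a type II keratin of simple and glandular epithelia, was dim and uneven. The WT intensities were 205, 38.2, 51.7, 77.1 and 149, and the KO intensities 23.4, 38.7, 24.7, 25.3 and 39.5. WT1 and WT5 were high, and WT2 lay below KO2 and KO5, so the genotypes overlapped. The average was 6.71 ± 0.85 over the 5 WT and 5.52 ± 0.25 over the 5 KO embryos (mean ± SD).

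The Krt7 difference was -1.19 with a standard error of 0.36 (95% interval -1.98 to -0.40) and an adjusted limma p of 0.239, which did not pass. An exact permutation test (two-sided) gave 0.0238. The KO mean lies under the filter level of 5.55, an intensity of 30.7, so the size depends on the pseudocount: the difference was -1.51 with 1 and -0.74 with 64. It was -1.01 in the high-bioB and -1.45 in the low-bioB set, and -0.92 without WT1. With the stricter level filter Krt7 was not tested.

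Krt19, a type I keratin that lacks the usual tail domain, was the only member whose probe set did not pass the level filter. Its intensities were 22.4, 24.0, 26.5, 36.7 and 24.3 in WT1 to WT5 and 19.9, 41.2, 25.9, 21.8 and 33.2 in KO1 to KO5. The genotypes overlapped fully, with means of 5.41 ± 0.18 and 5.45 ± 0.28 (SD, n = 5; exact two-sided permutation p = 0.817). No difference could be read at this brightness. Among the KO embryos KO2 and KO5 were the highest for Krt18, Krt19 and Krt7 alike, although for Krt19 and Krt7 they read only 33.2 to 41.2.

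The members were then compared in pairs, as the within-embryo difference of their log2 levels. From WT to KO embryos, Krt8 minus Krt19 changed by -2.98 and Krt18 minus Krt19 by -2.24, each with an exact two-sided permutation p of 0.00794 (0.0159 adjusted over 6 pairs). Since Krt19 was at the filter level in both genotypes, these values restate the differences of Krt8 and Krt18. Krt8 minus Krt7 changed by -1.75 (exact p = 0.0159, adjusted 0.0238), and without KO2 or without KO5 the adjusted p was 0.0595. It was -2.50 in the high-bioB and -0.956 in the low-bioB set, and it also missed the threshold with the bioB block, without WT4 and WT5, and with a pseudocount of 1. The KO mean of Krt7 lies under the filter level, so the size of a change against Krt7 depends on the pseudocount. For Krt8 minus Krt7 it was -1.44 with 1 and -2.17 with 64. Krt18 minus Krt7 changed by -1.01 (exact p = 0.151, adjusted 0.181), with -1.43 in the high-bioB and -0.451 in the low-bioB set. Krt8 minus Krt18 changed by -1.07 and -0.506 in the same order, Krt8 minus Krt19 by -3.67 and -2.30, and Krt18 minus Krt19 by -2.61 and -1.79. Krt19 minus Krt7 changed by 1.23 (exact p = 0.00794, adjusted 0.0159). As Krt19 was under the filter level in both genotypes and Krt7 in KO embryos, this value restates the Krt7 difference, which did not pass by limma, and it was 0.76 with a pseudocount of 64 (1.18 in the high-bioB and 1.34 in the low-bioB set).

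The other keratins on the array, mostly those of stratified epithelia, skin and hair, showed no tested member past the threshold. The type I list also holds Krt20 and Krt23, which are known from simple or glandular epithelia, and Krt20 lay under the filter. Of 26 further type I keratins listed, 23 were in the table and 10 were tested. Their differences lay between -0.20 and 0.10, with a median of -0.03, against a median of -0.01 over the 12518 genes tested. At an unadjusted p under 0.05 limma found 0 of the 10. Those with the smallest p were Krt36 (-0.20), Krt27 (-0.11) and Krt23 (0.10), and Krt42 and Krt31, among the brightest of this list, differed by -0.01 and 0.04.

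Of 24 further type II keratins, 19 were in the table and 13 were tested. Their differences lay between -0.13 and 0.14, with a median of 0.03, and again 0 passed at an adjusted or unadjusted limma p under 0.05. Krt80 differed by 0.14, Krt78 by -0.13, Krt6a by 0.07, Krt81 by 0.05 and Krt83 by -0.04. Over both lists no difference between genotypes exceeded 0.20 in size, against -2.94 for Krt8. The tested ones were dimmer, with WT means from 5.72 (Krt23) to 7.97 (Krt42) against 13.62 for Krt8. Those close to the filter level of 5.55 could not have shown a fall as large as that of Krt8.

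Genes around Krt8 and Krt18 on chromosome 15 were read as well, a choice made after the values of the members were known. Of the 12 nearest protein-coding genes, 6 on each side, 8 were tested and 0 passed (differences -0.22 to 0.33, lowest adjusted limma p 0.449). Over all genes tested 0.487% passed, so 0 of 8 says little. Krt78, the next type II keratin beside Krt8, averaged 7.18 ± 0.29 (WT) and 7.05 ± 0.16 (KO; mean ± SD of 5 embryos each). Eif4b, a translation initiation factor gene next to Krt18 on the other side, averaged 10.40 ± 0.20 and 10.72 ± 0.23. Spryd3 differed by -0.22, Igfbp6 by -0.15 and Csad by -0.18. Several of the 8 were dim and had little room to fall. Csad and Igfbp6, for example, had WT means of 5.64 and 6.13 against the filter level of 5.55.

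Other intermediate filament genes were read from a list of 16, of which 14 were tested, each at its brightest probe set. The median difference was -0.10, with 11 lower and 3 higher in KO embryos, where 6413 of all genes tested were lower and 6105 higher. A single gene passed the adjusted limma test, where 0.487% of all genes tested did so and 0.328% were lower in KO embryos. It was Lmna, which encodes the lamins A and C of the nuclear lamina, with 9.32 ± 0.63 over WT and 7.49 ± 0.45 over KO embryos (mean ± SD, 5 each; difference -1.83, adjusted p = 0.0430). Only 1 of 5 Lmna probe sets passed, and the others differed by -0.75, -0.36, -0.14 and -0.05. The call was lost in 8 of 13 other settings (adjusted p up to 0.437, in the high-bioB set alone) and in 9 of 10 fits that left out an embryo (all but WT1). The difference was -1.80 in the high-bioB and -1.92 in the low-bioB set. Lmnb2, a B-type lamin, differed by -0.55, and Ina, the neuronal filament protein internexin, by -1.02, with adjusted p of 0.416 and 0.532. The other 2 Ina probe sets tested differed by -0.21 and -0.11.

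**Figure D3:**
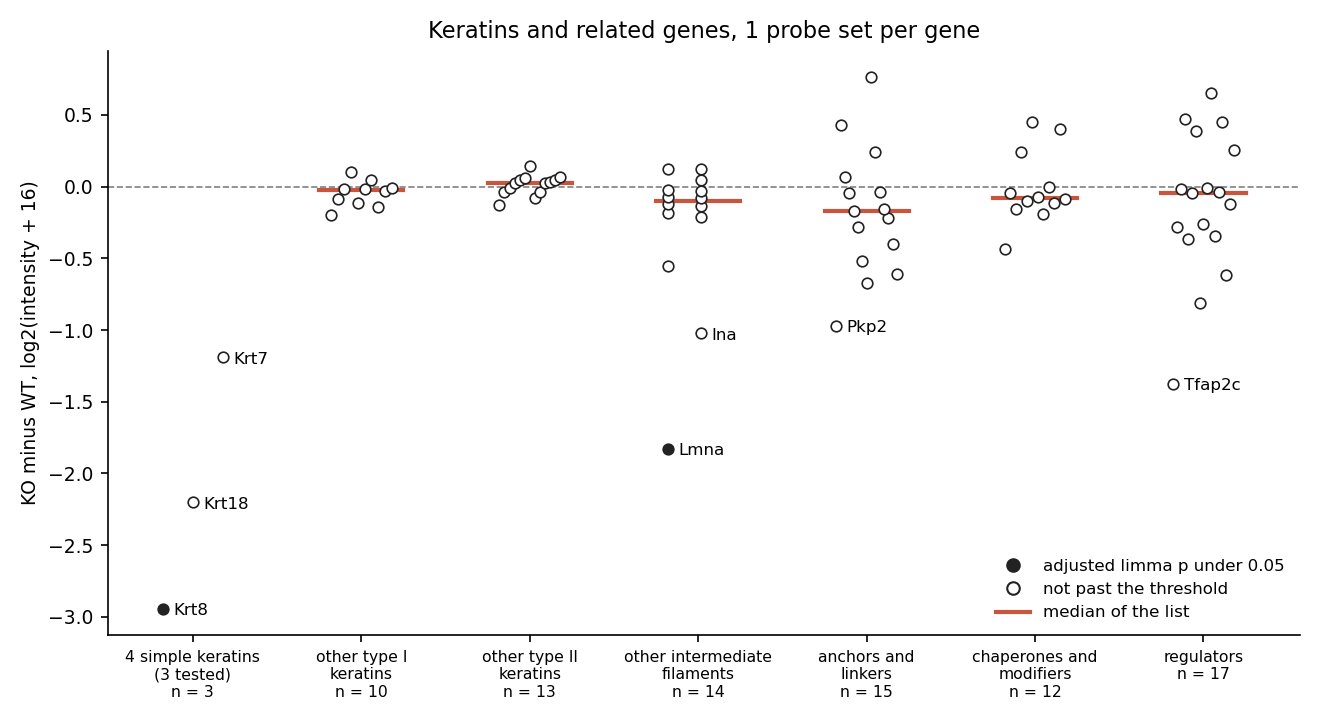
KO minus WT difference of each tested gene on the log2(intensity + 16) scale, with 1 probe set per gene, for the simple keratins and 6 lists of related genes; filled points passed an adjusted limma p of 0.05 and red lines are list medians. Krt8 (-2.94) and Lmna (-1.83) are the filled points, and the other type I and type II keratins lie between -0.20 and 0.14.

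Keratin filaments are held at the membrane by desmosomes and hemidesmosomes and linked to other filaments by plakins. Of 16 such anchors and linkers 15 were tested, with a median difference of -0.17, and 11 were lower and 4 higher in KO embryos. Over all genes tested the median was -0.01, with 6413 lower and 6105 higher. The 4 higher ones were Dsp (0.07), the brightest of the list, Dsg2 (0.76), Itga6 (0.43) and Macf1 (0.24), with adjusted limma p from 0.623 to 0.990. At the brightest probe set of each gene 0 passed the adjusted limma test, and 3 of the 15 had an unadjusted p under 0.05, all lower. Over all genes tested 5.74% were lower and 5.35% higher at that threshold. Evpl, the plakin envoplakin, averaged 7.33 ± 0.21 (WT) and 6.72 ± 0.17 (KO; mean ± SD, 5 each; difference -0.61, adjusted p = 0.0858). Pkp2, a desmosomal plaque protein, differed by -0.97 at one probe set and -0.28 at another, and Plec, the linker plectin, by -0.67 and 0.08, with adjusted p of 0.261 and 0.402 at the brighter ones.

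Chaperones, adaptors and enzymes that act on keratins were next. Of 15 listed 12 were tested, with a median difference of -0.08, and at the brightest probe set of each gene limma found 0 at an adjusted and 0 at an unadjusted p under 0.05. Ogt, the enzyme that attaches the sugar GlcNAc to Krt18 and many other proteins, differed by 0.45 there and by 0.33, 0.71 and 1.03 at its other probe sets. At the last of these the genotypes did not overlap, and the last 2 had unadjusted limma p of 0.00869 and 0.00498 (adjusted 0.254 and 0.204). Stub1, a ubiquitin ligase, differed by 0.24 and at its other probe set by 0.61. Mapk14, the p38 kinase, differed by -0.19, while its other 3 probe sets lay the other way (0.05, 0.11 and 0.20).

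Regulators of trophectoderm and of keratin genes formed the last list, with 17 of 20 tested and a median difference of -0.05. By the adjusted limma test 0 passed at the brightest probe sets, and at an unadjusted p under 0.05 there were 3 lower and 2 higher of the 17, against the 5.74% and 5.35% of all genes given above. Tfap2c, an AP-2 factor of trophectoderm, averaged 12.43 ± 0.37 (WT) and 11.06 ± 0.72 (KO; mean ± SD, 5 each; difference -1.37, adjusted p = 0.133). Its other probe sets differed by -0.99 and -0.30. Of the 17 genes 12 were lower and 5 higher in KO embryos, where 6413 of all genes tested were lower and 6105 higher. Grhl1 (-0.61) and Yap1 (-0.35) were also lower at an unadjusted p under 0.05 (adjusted limma p of 0.435 and 0.475). The other Yap1 probe set differed by 0.30. Tfap2a differed by -0.81 at its brightest probe set, Cdx2 by -0.28, Tead4 by -0.02, Eomes by 0.26 and Gata3 by 0.47 (adjusted limma p from 0.669 to 0.998). Klf6, a relative of Klf5, differed by 0.39 (adjusted p = 0.290) at its brightest probe set, and by 2.68 (adjusted p = 0.00944) at another, dim in WT embryos. Jun, an AP-1 factor, differed by 0.45 (adjusted p = 0.412). These lists were drawn up with earlier results of these arrays known.

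The genes whose levels followed Krt8 most closely were found by Pearson's r with Krt8 over the 10 embryos. They were Klf5 itself (r = 0.987), Cmip (0.984), Lgals4, a galectin of gut epithelium (0.977), Kcnn4, a calcium-activated potassium channel (0.973), and Marcksl1, an actin-binding membrane protein (0.962). These values rest largely on the difference between genotypes, which all 5 share by the way they were picked. They are a description over 10 arrays that share genotype and array set, with no test. When each level was taken from its genotype's mean, r was 0.79, 0.78, 0.74, 0.51 and 0.48 in the same order. The differences were -2.16 for Cmip, -1.71 for Lgals4, -2.70 for Kcnn4 and -0.996 for Marcksl1, whose other 3 probe sets differed by -1.50 to -1.13. The second probe set of Cmip differed by -0.40 and that of Kcnn4 by -0.22.

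**Figure D4:**
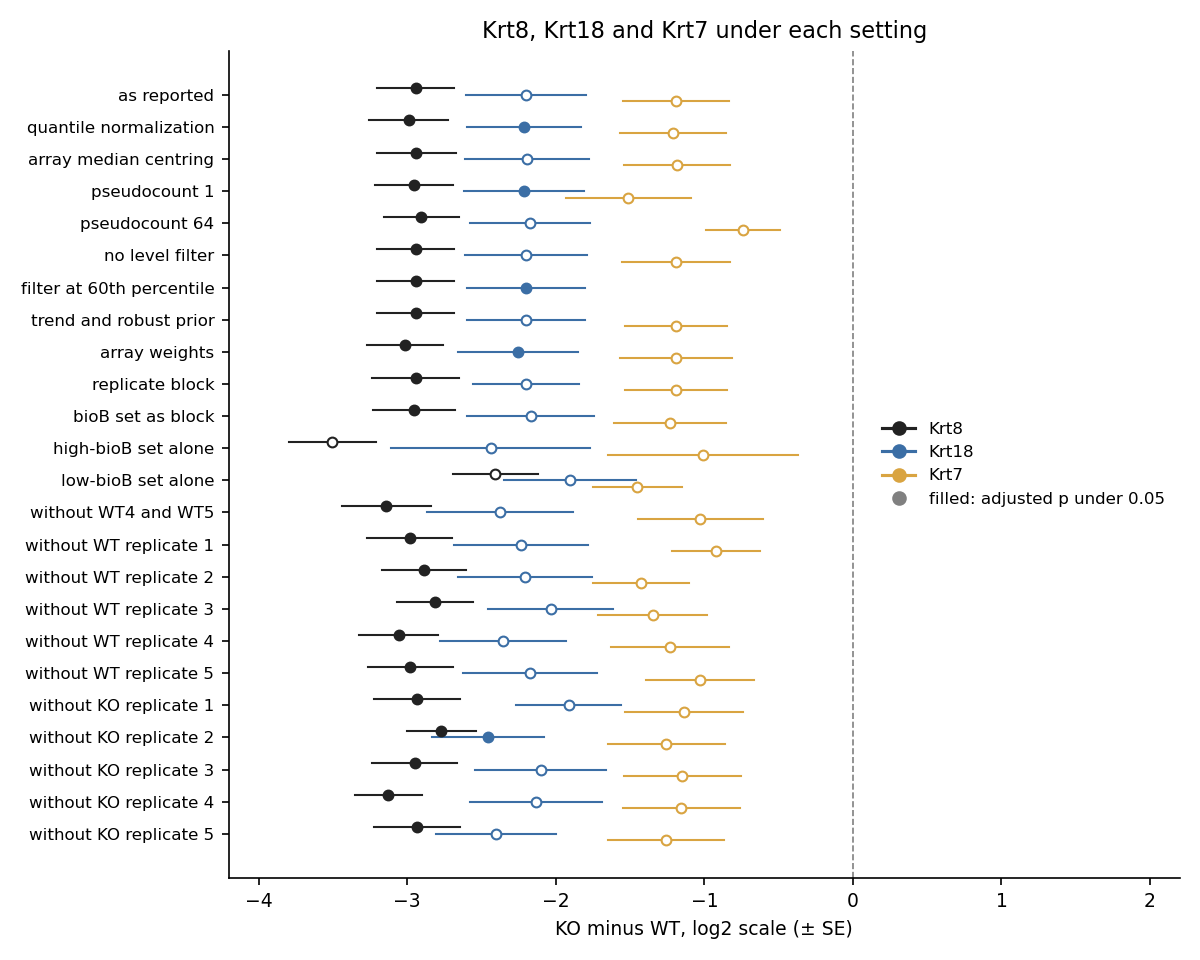
KO minus WT difference (± SE) of Krt8, Krt18 and Krt7 at the brightest probe set under each processing setting and with each embryo left out; filled points have an adjusted limma p under 0.05. The Krt8 points stay between -3.50 and -2.41, Krt18 crosses the threshold in 5 of the fits, and Krt7 in 0.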

How the data were processed

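The deposited values, judged by their range, are linear intensities, with 1 for each probe set on each array. Per the labels' protocols, cDNA of single embryos was made by the Kurimoto protocol, an amplification biased to 3′ ends, and labelled with biotin. Per the series' description GeneSpring GX was used. How the authors corrected background, summarised probes and normalized arrays is not given in the sources used here. Control probe sets (53) were left out, and 30854 of the others had 1 gene symbol, 781 several and 6988 none. Gene identifiers of 30697 matched the reference table, and 0 symbols changed. The transform was log2(intensity + 16), and probe sets with a mean below the 40th percentile (5.55) were left out, which left 23174. Limma 3.58.1 in R 4.3.3 (lmFit, eBayes, two-sided, no covariate) compared genotypes, with Benjamini-Hochberg adjustment and a threshold of 0.05. The script was tested on simulated data. Single values used exact permutation over all relabellings. Precision is limited by 5 arrays per genotype, and no litter is named, so that p-values reflect only how these embryos vary.

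The members and lists were chosen with earlier results of these data known. Named genes are all member probe sets, Klf5, the 3 genes of smallest p in each list, those past the threshold, the 3 brightest other keratins per class and the 5 genes most like Krt8. Ovgp1, Tppp3, Krt20, Pax8, Wt1, Muc16, Dppa3, Nanog, Cdx2, Gata3, Tead4, Eomes, Eif4b, Spryd3, Igfbp6 and Csad were named outside this rule. So were Tfap2a, Grhl1, Yap1, Dsp, Dsg2, Itga6 and Macf1. Alternatives covered normalization, pseudocounts of 1 and 64, filters, variance model, array weights, blocks, the bioB sets and left-out embryos.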

Additional observations from a re-analysis of the deposited data

Results flagged for a closer look

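Among the keratin probe sets and the other genes named under the rule above, 64 groups of 5 embryos were examined for an embryo far from the others, and 4 held one, where chance gives about 1 in 20. None of these concerned Krt8, Krt18 or Krt7. Krt42 was low in WT2, at 7.78 against 7.98 for the nearest WT embryo. Krt83 was high in WT4, at 7.19 against 6.94. Krt6a was high in KO1, at 6.05 against 5.81 for the nearest KO embryo. Evpl was low in KO3, at 6.43 against 6.76.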

How the results depend on the processing

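The number of probe sets past the threshold was 85, and 24 with the embryo number as a replicate block, 1 in the high-bioB set alone and 0 in the low-bioB set alone (limma; 2119 and 3508 there at an unadjusted p under 0.05), and 45 to 63 with each embryo left out. Under the replicate block the differences of Krt8, Krt18 and Krt7 were -2.94, -2.20 and -1.19, with adjusted p of 0.0436, 0.120 and 0.291, so no call among them changed. Deviations of same-numbered embryos correlated at -0.03 to 0.18, and 3 of 10 embryos correlated best with their own number. Whether the numbers pair the embryos is not settled by these few values. Krt8 lost its call only in the bioB sets alone (-3.50 and -2.41), and with each embryo left out it was -3.13 to -2.77. Krt18 passed with quantile normalization (-2.21), a pseudocount of 1 (-2.21), the 60th percentile filter (-2.20) and array weights (-2.26), and was -2.46 to -1.91 with each embryo left out. Krt7 was -1.43 to -0.92 with each embryo left out. The change of Krt8 minus Krt7 missed the threshold with a pseudocount of 1 (-1.44), the bioB block (-1.73) and without WT4 and WT5 (-2.11), and was -2.06 to -1.46 with each embryo left out. That of Krt18 minus Krt7 passed with a pseudocount of 64 (-1.43). Small differences changed sign: Krt42 with the bioB block (0.0025) and in the high-bioB set (0.11), Krt83 in that set (0.0242) and without WT4 and WT5 (0.0161), Stub1 in the high-bioB set (-0.0125), Krt23 (-0.0102), Krt80 (-0.0414) and Krt81 (-0.17) in the low-bioB set, and Krt6a without WT4 and WT5 (-0.0128). With each embryo left out Krt42 was -0.0622 to 0.0340 and Krt83 -0.0552 to 0.0152. The cause was not tested. Intensities near 30.7, as for Krt19 and Krt7 in KO embryos, limit what can be read.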

Other observations

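Krt8 and the Klf5 probe set that follows the labels shared some of their order within genotypes. Among KO embryos the Klf5 intensity was 13.97 in KO2, 15.1 in KO5, 20.6 in KO3, 22.4 in KO1 and 49.2 in KO4, and Krt8 was likewise lowest in KO2 and highest in KO4. Among WT embryos Klf5 was lowest in WT4 (1096) and highest in WT2 (4183), while Krt8 was lowest in WT4 and highest in WT3. The WT order of Klf5 also follows the array set. WT4 and WT5, of the low-bioB set, read 1096 and 1726, and WT1 to WT3, of the high-bioB set, 3201 to 4183. Among WT embryos the part of the array set in this shared order was not tested. Apart from KO4, the KO values of Klf5 lie under the filter intensity of 30.7. Krt18 did not follow the order of Klf5 among KO embryos, since KO2 was the highest KO embryo for it.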
